A study of Homo sapiens with 5 samples.

Results

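ATF4 target genes and the genes of the cytosolic aminoacyl-tRNA synthetases were followed in KMH2, an established Hodgkin lymphoma cell line of B lineage. The cells had been cultured with LY294002, an inhibitor of phosphoinositide 3-kinase (PI3K), or with its solvent. The members were 28 genes named as ATF4 targets or synthetases, together with every further gene whose symbol has the form of a cytosolic synthetase. Of the 28, 23 had a probe set that carries that 1 symbol, and 10 further synthetases were found in this way, which gave 33 of the 7713 genes measured. Each gene was represented by its brightest probe set. SHMT1, DDIT3, DDIT4, SESN2 and CHAC1, and the synthetase genes LARS1, MARS1 and QARS1, were not analysed here. The LY294002 group (2 arrays) was cultured for 16 hours with 30 uM LY294002, a morpholine compound used as a PI3K inhibitor that also binds mTOR. The DMSO group (3 arrays) was cultured for 16 hours with the solvent of the inhibitor. All cells were grown in RPMI1640 with fetal calf serum and antibiotics. Triplicates had been planned for both groups, and the study dropped 1 array whose background was high. Expression was measured on Affymetrix arrays, and the values are the log2 probe set values that the authors deposited. The labels do not say whether replicates were separate cultures, so each p-value rests on a spread between arrays that may be technical only.

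ATF4 is a transcription factor whose mRNA is translated more when the initiation factor eIF2 is phosphorylated, as happens under amino acid shortage and stress of the endoplasmic reticulum. In many cell types mTORC1, which acts downstream of PI3K, also raises ATF4 protein. ATF4 pairs with C/EBP proteins and binds composite elements in the promoters of genes for amino acid synthesis, amino acid import and the charging of tRNA. Aminoacyl-tRNA synthetases join each amino acid to its tRNA, and several but not all of their genes are known ATF4 targets. The comparison of LY294002 with DMSO shows whether these mRNAs differed between cells given the compound and cells given its solvent. PI3K activity itself is not among the values used here.

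The promoters of the members were searched for TGATGNAA, the core of the composite C/EBP-ATF element, on both strands of the RefSeq windows (250 bases before to 50 bases after each start, GRCh38.p14). Windows were found for 28 of the 33 members, and not for PSPH, SHMT2, NUPR1, VARS1 and YARS1. The motif was found in 9 of the 28 members (32.1%), against 3.83% of the 6209 genes on the array with a window and 4.46% of all 27305 genes with a window. The narrower TGATGCAA, a case of the first motif, was found in 6 members (21.4%), against 1.11% of the genes on the array with a window. A match is a description of these letters and not a measured binding site. Members were named in part as ATF4 targets, so these shares are not independent of how the members were chosen. The stretches below hold the match of each of the 9 genes. They run 5' to 3' on the strand of the gene, and capitals mark the motif, which reads TTGCATCA or TTTCATCA where it lies on the opposite strand.
ASNS: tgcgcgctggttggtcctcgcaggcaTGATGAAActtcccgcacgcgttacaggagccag
GARS1: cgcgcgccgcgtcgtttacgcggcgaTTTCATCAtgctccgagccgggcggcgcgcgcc
AARS1: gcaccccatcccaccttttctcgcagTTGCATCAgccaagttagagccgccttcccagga
CARS1: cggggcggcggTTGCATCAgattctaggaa
IARS1: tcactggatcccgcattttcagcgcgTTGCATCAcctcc
TARS1: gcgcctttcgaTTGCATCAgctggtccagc
NARS1: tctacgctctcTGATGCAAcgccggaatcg
CEBPG: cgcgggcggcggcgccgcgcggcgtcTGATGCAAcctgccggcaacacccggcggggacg
ATF3: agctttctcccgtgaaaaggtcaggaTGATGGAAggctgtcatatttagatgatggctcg

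The stretch of ASNS lies at chr7:97872443-97872502 on the minus strand, with the first base of the motif 68 bases before the start. That of GARS1 lies at chr7:30594819-30594877 on the plus strand (33 bases before the start), and that of AARS1 at chr16:70289660-70289719 on the minus strand (187 bases before). CARS1 has its stretch at chr11:3057407-3057436 on the minus strand (2 bases before) and IARS1 at chr9:92293698-92293736 on the minus strand (13 bases before). The motif of TARS1 begins at base 3 of the transcript (chr5:33440956-33440985, plus strand) and that of NARS1 at base 15 (chr18:57621804-57621833, minus strand). CEBPG has it 42 bases before the start (chr19:33374045-33374104, plus strand) and ATF3 191 bases before (chr1:212565190-212565249, plus strand).

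The DMSO arrays were not alike on these genes. DMSO replicate 1 was the highest of the 3 DMSO arrays in 22 of the 33 members (66.7%), against 25% of all genes. Over all genes, only 20 (0.259%) stood at least 0.5 above the mean of DMSO replicates 2 and 3 on the log2 scale, and 8 of these 20 were members: ATF5, ASNS, GARS1, ATF4, AARS1, PSAT1, CARS1 and CTH. ATF5 had the largest such difference of all 7713 genes, 1.43 or 2.7-fold, and 16 members were among the 100 genes with the largest. For DMSO replicates 2 and 3 measured against the others in the same way, 1 gene each stood 0.5 or more above, and 0 of them were members. On the lower side 3 genes stood 0.5 or more below on DMSO replicate 2, of which 1 was a member. On DMSO replicate 3 there were 10 such genes, of which 2 were members. The median of the members was 0.24 for DMSO replicate 1, -0.07 for DMSO replicate 2 and -0.17 for DMSO replicate 3. A further 39 genes stood at least 0.5 below on DMSO replicate 1, of which 0 were members. Over all probe sets Pearson's r of DMSO replicate 1 was 0.997 with DMSO replicate 2 and 0.996 with DMSO replicate 3, and 0.998 between the other two. Most differences are therefore given over all arrays and, beside them, without DMSO replicate 1.

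**Figure D1:**
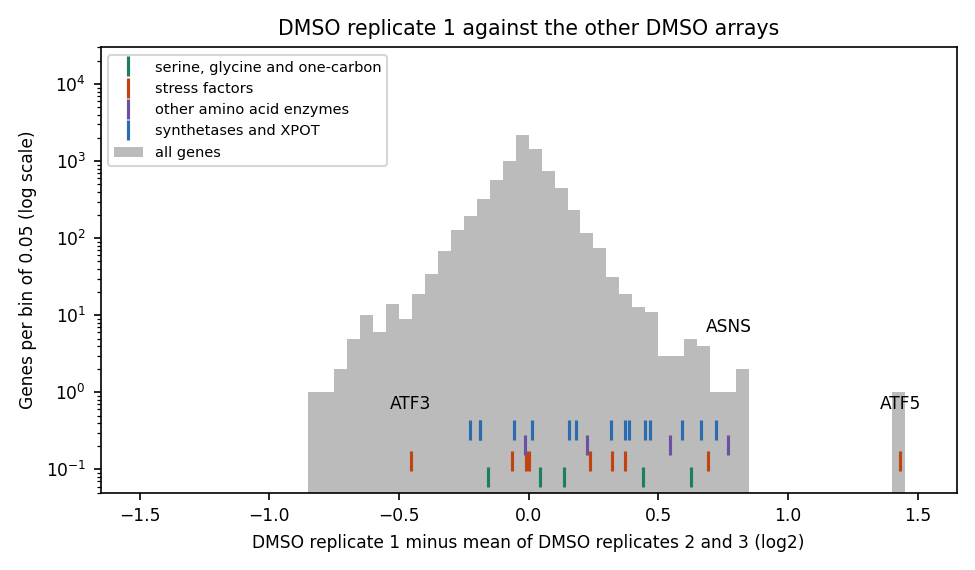
Grey bars count genes (log axis) by the log2 difference between DMSO replicate 1 and the mean of DMSO replicates 2 and 3. Coloured ticks, whose height has no meaning, mark the 33 members by class. ATF5 lies alone at 1.43, ASNS at 0.77, and ATF3 lies on the other side at -0.46.

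In KMH2 cells with LY294002 most members lay lower than with DMSO, by little. The log2 difference was below 0 in 28 of 33 members, against 55.7% of all genes. The median was -0.20 over the members, or -0.12 without DMSO replicate 1, against -0.01 over all genes in either case. Both LY294002 arrays lay below all DMSO arrays in 18 members (54.5%), where 13.4% of all genes did so, and above them in 2 members, ATF3 and PSPH, where 16.2% did so. Without DMSO replicate 1 these counts were 20 below (20.2% of all genes) and 3 above (18.6% of all genes), and 25 of 33 differences were below 0.

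None of these differences passed the test across all genes. In limma with Benjamini-Hochberg adjustment 0 of 33 members passed an adjusted p of 0.05 in either direction, where 70 genes (0.908%) did, 0.609% of genes higher and 0.298% lower, and the adjusted p-values of the members ran from 0.165 to 0.989. An unadjusted p under 0.05 was found for 6 members that were lower (6.5% of all genes) and 2 that were higher (10.6% of all genes). Without DMSO replicate 1, 0 members and 4 genes (0.0519%) passed, and the lowest adjusted p of a member was 0.101. At an unadjusted p under 0.05 there were then 6 lower (6.66% of all genes) and 3 higher members (8.44%). Over the 33 members, 9 held a value that was equal in every deposited decimal on at least 2 arrays of 1 group, as did 38.1% of all genes, and such ties narrow the spread the test sees. A total of 5 members (VLDLR, CTH, NUPR1, CBS and STC2) averaged below 5.25, the lower quartile of all genes, where a difference can be hard to see.

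**Figure D2:**
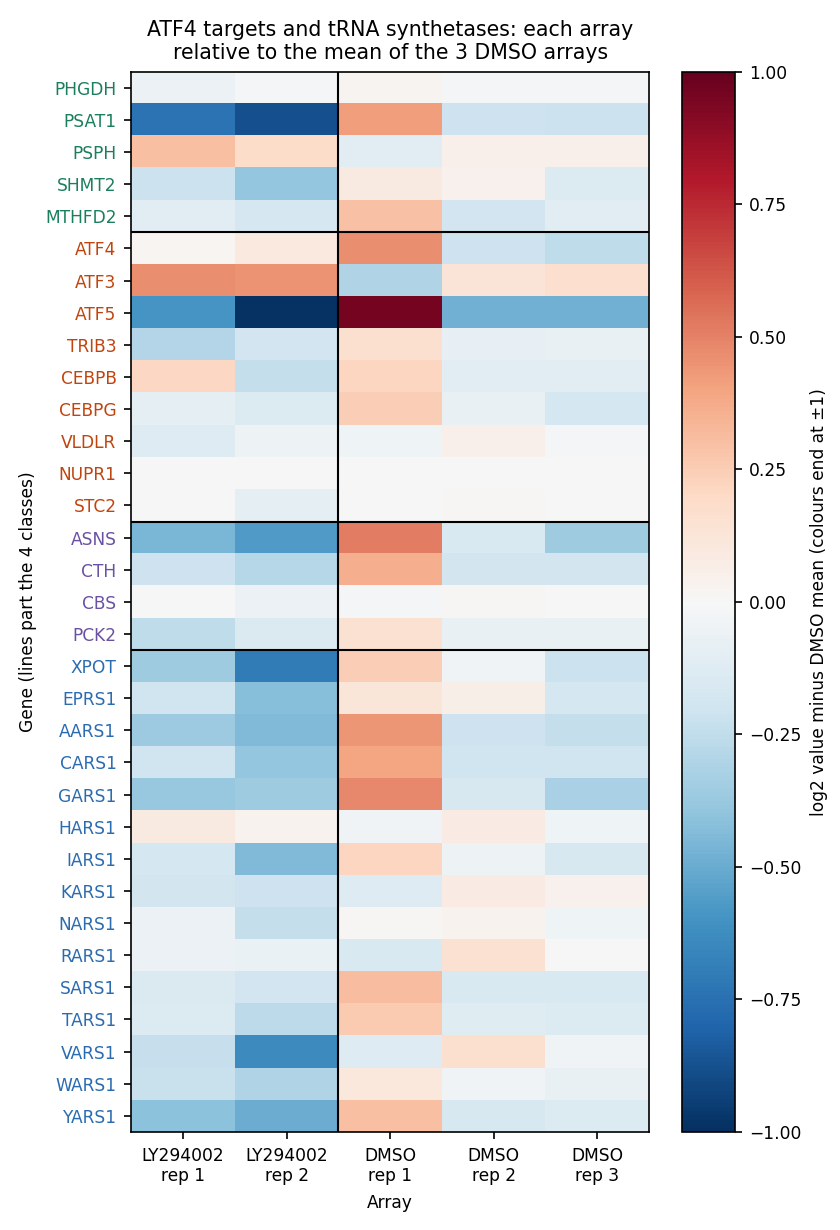
Log2 value of each of the 33 members on each array minus the mean of the 3 DMSO arrays, with the LY294002 arrays on the left. Blue is lower and red is higher, and colours end at ±1. The column of DMSO replicate 1 is red for ATF5, ASNS, GARS1 and ATF4 and blue for ATF3, and both LY294002 columns are blue for most synthetases.

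Among the enzymes that make serine and pass its carbon to folate, PSAT1 differed most. PSAT1, the aminotransferase of serine synthesis, had 8.00 and 7.86 on the LY294002 arrays, against 9.16, 8.54 and 8.53 on the DMSO arrays. Both LY294002 arrays lay below all DMSO arrays, whose own spread came from replicate 1. The log2 difference was -0.81 ± 0.23 (standard error of the limma fit, as in all that follow), a fold of 0.571, with a limma adjusted p of 0.188. Without DMSO replicate 1 it was -0.60 ± 0.06 (limma adjusted p = 0.102) over 2 arrays against 2.

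SHMT2, the mitochondrial enzyme that splits serine into glycine and a one-carbon unit, had 9.69 and 9.52 with LY294002, against 9.99, 9.95 and 9.77 with DMSO. The groups did not overlap, and the difference was -0.30 ± 0.09 (limma adjusted p = 0.225), and -0.25 ± 0.10 without DMSO replicate 1. A second, dimmer probe set of SHMT2 gave -0.49 ± 0.09 (limma adjusted p = 0.104). MTHFD2, the next mitochondrial enzyme of the folate pathway, had 10.20 and 10.14 with LY294002, against 10.60, 10.12 and 10.20 with DMSO. Its groups overlapped, and its difference of -0.14 ± 0.16 was 0.0088 without DMSO replicate 1.

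PSPH, the phosphatase of the last step of serine synthesis, lay the other way. It had 7.57 and 7.46 with LY294002, against 7.17, 7.33 and 7.33 with DMSO, and the groups did not overlap. The difference was 0.24 ± 0.07 (limma adjusted p = 0.205), and 0.19 ± 0.05 without DMSO replicate 1, but a dim second probe set of the gene gave -0.16 ± 0.06, so that the sign is not settled. PHGDH, the dehydrogenase of the first step, was between 6.02 and 6.11 on all 5 arrays, with a difference of -0.04 ± 0.03 that was -0.024 without DMSO replicate 1. The 5 genes thus had a median of -0.14, or -0.02 without DMSO replicate 1.

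The stress factors did not share a direction. ATF4 mRNA had 9.29 and 9.37 with LY294002, against 9.73, 9.06 and 9.02 with DMSO. The LY294002 arrays therefore lay below DMSO replicate 1 and above both other DMSO arrays. The difference was 0.06 ± 0.25 (limma adjusted p = 0.91) over all arrays and 0.29 ± 0.04 (limma adjusted p = 0.145) without DMSO replicate 1. It had the opposite sign without DMSO replicate 2 or DMSO replicate 3.

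ATF5, a related bZIP factor controlled by eIF2 phosphorylation as ATF4 is, had 8.22 and 7.83 with LY294002, against 9.77, 8.34 and 8.34 with DMSO. The groups did not overlap, but most of the difference of -0.79 ± 0.52 (limma adjusted p = 0.459) came from DMSO replicate 1, and it was -0.31 ± 0.16 without that array. TRIB3, a pseudokinase induced by ATF4 that binds AKT, had 7.15 and 7.25 with LY294002, against 7.60, 7.36 and 7.37 with DMSO. Its groups did not overlap either (-0.24 ± 0.09, limma adjusted p = 0.299; -0.16 ± 0.05 without DMSO replicate 1).

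ATF3, an early stress factor that is also induced by other pathways, had the highest difference of the members. It had 9.22 and 9.20 with LY294002, against 8.45, 8.88 and 8.92 with DMSO. Both LY294002 arrays were above all DMSO arrays, and DMSO replicate 1, high for ATF4 and ATF5, was the lowest array for ATF3. The difference was 0.46 ± 0.16 (limma adjusted p = 0.271), and 0.31 ± 0.03 (limma adjusted p = 0.101) without DMSO replicate 1.

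CEBPB and CEBPG, C/EBP partners of ATF4, overlapped between the groups, with differences of -0.02 ± 0.18 and -0.12 ± 0.14. Without DMSO replicate 1 both were slightly above 0, at 0.09 and 0.0085. The other members of this class were dim. VLDLR, a lipoprotein receptor, stood at -0.09 ± 0.05 (-0.11 without DMSO replicate 1), with both LY294002 arrays just below the DMSO arrays. STC2, a secreted glycoprotein, was at -0.05 ± 0.04, and NUPR1, a small stress-induced nuclear protein, was at 5.10 on all 5 arrays. The median over the 9 genes was -0.05, and 0.0010 without DMSO replicate 1.

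Of the other enzymes of amino acid metabolism, ASNS carried the largest difference. ASNS, asparagine synthetase and a standard readout of ATF4, had 7.72 and 7.61 with LY294002, against 8.69, 8.02 and 7.82 with DMSO. The groups did not overlap, although DMSO replicate 3 was close to the nearer LY294002 array. The difference was -0.51 ± 0.28 (limma adjusted p = 0.438), and -0.25 ± 0.09 (limma adjusted p = 0.373) without DMSO replicate 1.

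CTH, the enzyme that releases cysteine from cystathionine, had 4.45 and 4.37 with LY294002, against 5.02, 4.47 and 4.47 with DMSO, and outside DMSO replicate 1 the groups were parted by a narrow gap only (-0.24 ± 0.19; -0.06 without DMSO replicate 1). PCK2, the mitochondrial phosphoenolpyruvate carboxykinase, had 6.25 and 6.36 with LY294002, against 6.65, 6.43 and 6.43 with DMSO. Its difference was -0.20 ± 0.09 (limma adjusted p = 0.377), and -0.12 ± 0.05 without DMSO replicate 1. CBS, the enzyme that makes cystathionine, lay between 5.13 and 5.20 on all arrays, on a probe set that may also bind its near-identical copy.

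**Figure D3:**
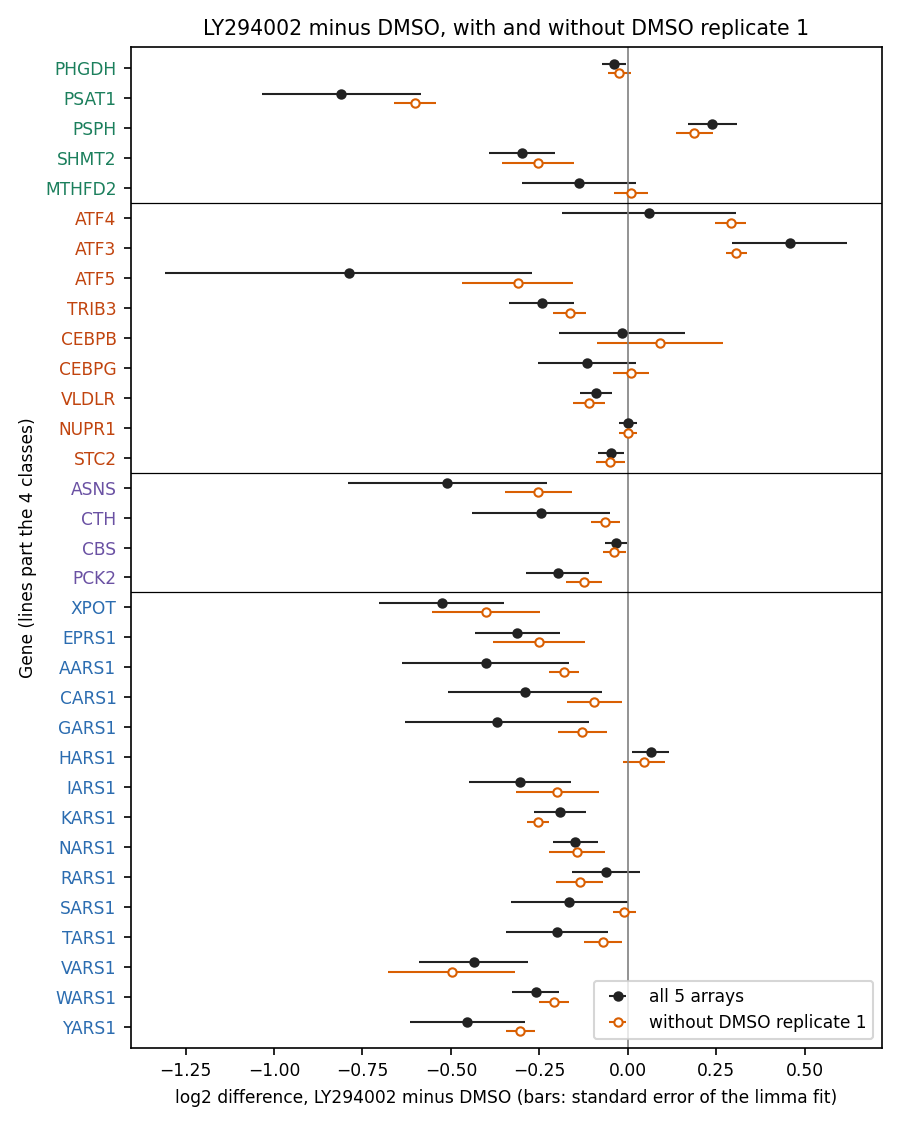
Log2 difference of LY294002 minus DMSO for the 33 members with standard errors of the limma fit, over all 5 arrays (filled) and without DMSO replicate 1 (open). The open points of ATF5, ASNS, GARS1 and AARS1 lie nearer to 0 than the filled ones, ATF4 lies further above 0, and KARS1 and VARS1 lie slightly further below 0.

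Of 14 synthetase genes 13 had a difference below 0 (55.7% of all genes), the exception being HARS1, and both LY294002 arrays lay below all DMSO arrays in 9 (13.4% of all genes). The median of the 15 genes with XPOT was -0.29, and -0.18 without DMSO replicate 1, where 14 of 15 were again below 0. WARS1, the tryptophanyl-tRNA synthetase, which is also induced by interferon, had 7.89 and 7.82 with LY294002, against 8.22, 8.08 and 8.05 with DMSO. Its groups did not overlap, and its limma adjusted p of 0.165 was the lowest of the members (-0.26 ± 0.07; -0.21 ± 0.04 without DMSO replicate 1).

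YARS1, the tyrosyl enzyme, had 8.75 and 8.67 with LY294002, against 9.46, 9.00 and 9.03 with DMSO. The groups were well apart, with a difference of -0.45 ± 0.16 (limma adjusted p = 0.274) and of -0.30 ± 0.04 (limma adjusted p = 0.138) without DMSO replicate 1. XPOT, the exportin that carries tRNA out of the nucleus, had 7.67 and 7.33 with LY294002, against 8.28, 7.99 and 7.82 with DMSO. Its LY294002 arrays lay further from each other than the nearer of them lay from the DMSO arrays (-0.53 ± 0.18, limma adjusted p = 0.252; -0.40 ± 0.15 without DMSO replicate 1).

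AARS1, the alanyl enzyme, had 9.71 and 9.62 with LY294002, against 10.51, 9.86 and 9.83 with DMSO. The groups did not overlap, and the difference of -0.40 ± 0.24 (limma adjusted p = 0.443) was -0.18 ± 0.04 (limma adjusted p = 0.239) without DMSO replicate 1. GARS1, the glycyl enzyme, had 8.92 and 8.95 with LY294002, against 9.78, 9.14 and 8.98 with DMSO. DMSO replicate 3 was nearly level with the LY294002 arrays, and the difference of -0.37 ± 0.26 was -0.13 ± 0.07 without DMSO replicate 1. IARS1, the isoleucyl enzyme, had 9.32 and 9.06 with LY294002, against 9.71, 9.45 and 9.33 with DMSO, which left almost no gap between the groups (-0.31 ± 0.14; -0.20 ± 0.12 without DMSO replicate 1).

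For CARS1, SARS1 and TARS1, the cysteinyl, seryl and threonyl enzymes, the LY294002 and DMSO arrays overlapped. Their differences of -0.29 ± 0.22, -0.17 ± 0.17 and -0.20 ± 0.14 were -0.09, -0.0097 and -0.07 without DMSO replicate 1. EPRS1, which charges both glutamate and proline tRNA, and NARS1, the asparaginyl enzyme, did not overlap between the groups, at -0.31 ± 0.12 and -0.15 ± 0.06 (-0.25 and -0.145 without DMSO replicate 1).

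KARS1, VARS1, RARS1, HARS1 and NARS1 did not share the high value of DMSO replicate 1. KARS1, the lysyl enzyme, had 10.49 and 10.46 with LY294002, against 10.54, 10.75 and 10.71 with DMSO. Here DMSO replicate 1 was the lowest DMSO array, and the difference was -0.19 ± 0.07 with that array and -0.25 ± 0.03 (limma adjusted p = 0.127) without it. A second, slightly dimmer probe set of KARS1 gave a smaller difference over all arrays, -0.10 ± 0.06 (limma adjusted p = 0.44). VARS1, the valyl enzyme, had 6.21 and 5.80 with LY294002, against 6.31, 6.60 and 6.41 with DMSO (-0.44 ± 0.15, limma adjusted p = 0.271; -0.50 ± 0.18 without DMSO replicate 1). The arginyl enzyme RARS1 was at -0.06 ± 0.10, and at -0.14 ± 0.07 without DMSO replicate 1, again its lowest DMSO array. The histidyl enzyme HARS1 was at 0.06 ± 0.05 (0.04 without DMSO replicate 1) with overlapping groups.

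**Figure D4:**
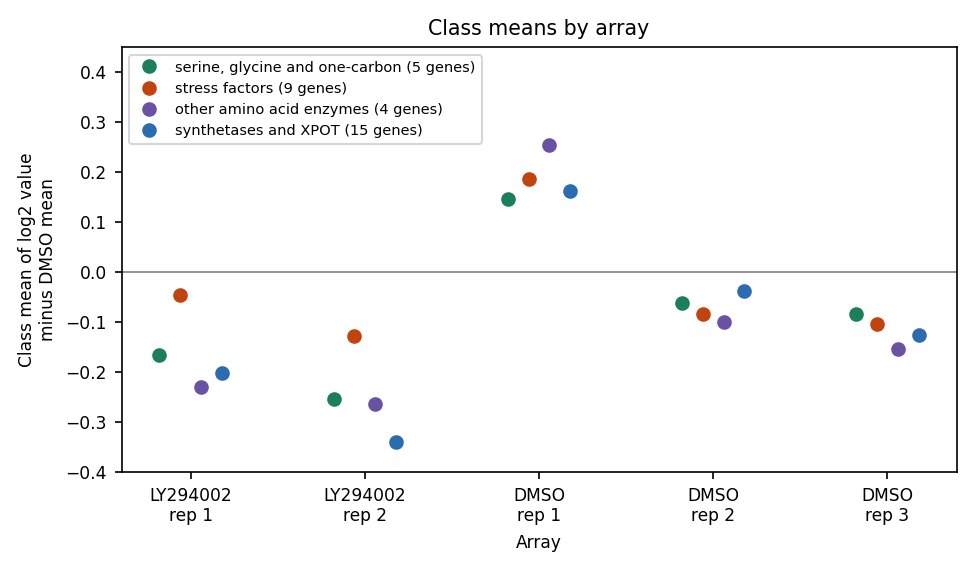
Mean over the genes of each class of the log2 value minus the DMSO mean, by array. The synthetases with XPOT stand at -0.20 and -0.34 on the LY294002 arrays and at 0.16, -0.04 and -0.13 on DMSO replicates 1, 2 and 3, and the stress factors at -0.05 and -0.13 with LY294002 and at 0.19, -0.08 and -0.10 with DMSO.

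The class means show both patterns side by side. The 5 serine, glycine and one-carbon genes averaged -0.17 and -0.25 on the LY294002 arrays relative to the DMSO mean, against 0.15, -0.06 and -0.08 on the DMSO arrays. The 4 other amino acid enzymes averaged -0.23 and -0.26 with LY294002, against 0.25, -0.10 and -0.15 with DMSO. In each of the 4 classes DMSO replicate 1 was the highest array. For the stress factors the other DMSO arrays lay within the range of the LY294002 arrays, whereas in the remaining classes both LY294002 arrays lay below all DMSO arrays. Among the 9 members with TGATGNAA in the promoter window, DMSO replicate 1 was the highest DMSO array in 7 (25% of all genes) and LY294002 lay below all DMSO arrays in 5 (13.4% of all genes). Among the 19 members with a window and no match, the counts were 13 and 10.

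Genes that neighbour the members in the pathway were read from 6 further lists. Of 3 mitochondrial synthetase genes measured, 1 passed limma as higher (0.609% of all genes), FARS2. WARS2 also lay above all DMSO arrays on both LY294002 arrays, as did 16.2% of all genes (0.12 ± 0.05, limma adjusted p = 0.38; 0.13 without DMSO replicate 1). YARS2 overlapped between the groups (-0.03 ± 0.03; -0.04 without DMSO replicate 1). FARS2, the mitochondrial phenylalanyl enzyme, had 9.53 and 9.51 with LY294002, against 9.07, 9.01 and 9.05 with DMSO. The groups were far apart, and the difference of 0.48 ± 0.03 had a limma adjusted p of 0.021. The size was 0.46 to 0.49 when any 1 array was left out, but the call was lost each time (limma adjusted p = 0.0686 to 0.141) and with the replicate block (0.348). FARSA, a subunit of the cytosolic phenylalanyl enzyme, and AIMP1, a scaffold of the multisynthetase complex, stood at -0.04 ± 0.08 and 0.04 ± 0.07 (-0.05 and 0.06 without DMSO replicate 1).

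In the other lists 0 genes passed limma in either direction. Of 10 amino acid transporter genes 8 were below 0 (55.7% of all genes) and 1 was lower at an unadjusted p under 0.05 (6.5% of all genes). The cystine transporter SLC7A11 had 5.50 and 5.59 with LY294002, against 6.28, 5.79 and 5.71 with DMSO, a difference of -0.38 ± 0.19 that was -0.20 without DMSO replicate 1. The leucine transporter SLC7A5 had 8.24 and 7.86 with LY294002, against 8.74, 8.24 and 8.25 with DMSO, with a difference of -0.36 ± 0.21 that was -0.19 without DMSO replicate 1. The groups of SLC7A11 did not overlap, and those of SLC7A5 did. Among the DMSO arrays both were highest on DMSO replicate 1, as were 8 of the 10 transporters (25% of all genes).

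Of 10 genes for eIF2, eIF2B and the eIF2 kinases and phosphatases, 3 had an unadjusted p under 0.05, 2 higher (10.6% of all genes) and 1 lower (6.5% of all genes). PPP1R15A, the stress-induced subunit that dephosphorylates eIF2, had 8.29 and 8.49 with LY294002, against 7.87, 7.91 and 8.04 with DMSO. The groups did not overlap, DMSO replicate 1 was the lowest array, and the difference was 0.45 ± 0.08 (limma adjusted p = 0.0995; 0.42 without DMSO replicate 1). EIF2AK1, the haem-regulated eIF2 kinase, had 9.84 and 9.58 with LY294002, against 9.37, 9.27 and 9.17 with DMSO (0.44 ± 0.10, limma adjusted p = 0.141; 0.49 without DMSO replicate 1).

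Of 13 further targets of ATF4 or CHOP, 4 had an unadjusted p under 0.05, all lower (6.5% of all genes). VEGFA, the angiogenic growth factor, had 6.93 and 6.55 with LY294002, against 8.11, 7.34 and 7.26 with DMSO. It was separate between the groups and highest on DMSO replicate 1, with a difference of -0.83 ± 0.31 (limma adjusted p = 0.292; -0.56 without DMSO replicate 1). BCAT1, the cytosolic aminotransferase of branched-chain amino acids, had 5.62 and 5.47 with LY294002, against 6.47, 6.19 and 6.07 with DMSO (-0.70 ± 0.14, limma adjusted p = 0.107; -0.58 without DMSO replicate 1).

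Of 10 further genes of folate and glycine metabolism, 3 had an unadjusted p under 0.05, all lower (6.5% of all genes). GCSH, a protein of the glycine cleavage system, had 8.21 and 7.92 with LY294002, against 8.52, 8.72 and 8.76 with DMSO. TYMS, thymidylate synthase of DNA synthesis, had 10.95 and 10.74 with LY294002, against 11.17, 11.37 and 11.48 with DMSO. Neither gene overlapped between the groups and both were lowest, not highest, on DMSO replicate 1 among the DMSO arrays. The differences were -0.60 ± 0.12 (limma adjusted p = 0.111) and -0.50 ± 0.12 (limma adjusted p = 0.152), and without DMSO replicate 1 they were -0.67 and -0.58. The difference of GCSH passed after quantile normalization (-0.66, limma adjusted p = 0.0239).

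**Figure D5:**
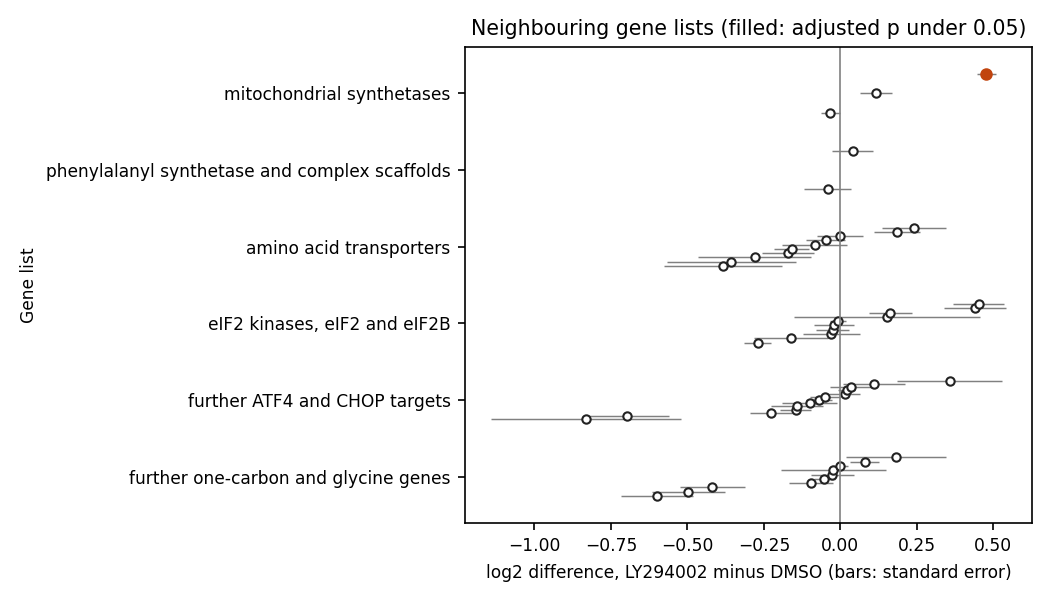
Log2 difference of LY294002 minus DMSO with standard errors for each measured gene of the 6 neighbouring lists. The filled point at 0.48 is FARS2, and the open points did not pass, among them VEGFA at -0.83 and BCAT1 at -0.70.

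Probe set levels are not comparable between genes, so the markers of the labelled cell type are given as values only. The Hodgkin cell markers TNFRSF8, FSCN1, TRAF1, CD40 and IRF4 averaged 7.55 to 10.29 with LY294002 and 8.23 to 10.42 with DMSO, and CCL17 averaged 6.04 with LY294002 and 6.40 with DMSO. IRF4 was the 1 marker to pass, higher with LY294002 by 0.66 ± 0.07 (limma adjusted p = 0.0473), and it did not pass without DMSO replicate 1 (limma adjusted p = 0.115). TNFRSF8, the gene of CD30, stood at -0.68 ± 0.17 (limma adjusted p = 0.157) and TRAF1 at 0.38 ± 0.07 (limma adjusted p = 0.0994). The monocyte markers CD14 and CSF1R averaged 5.59 and 5.86 with LY294002, against 5.65 and 5.81 with DMSO. The T cell markers CD3E, CD3D and CD2 averaged 6.62 to 8.71 with LY294002 and 6.72 to 8.80 with DMSO, with limma adjusted p-values of 0.303 to 0.573. The part of these marker genes in the results was not tested. On bulk RNA, fewer cells with an mRNA and less of it per cell cannot be told apart.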

How the data were processed

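Total RNA was turned into biotinylated cRNA for Affymetrix arrays, as the labels' protocols state. The authors deposited log2 values per probe set, and the submitters' processing notes name the package affy; neither its version nor how background was corrected and probes summarised is given in the sources used here. The array medians lay between 6.26 and 6.29, and the values were used as deposited. There is no sequencing depth, and the number of arrays limits the precision.

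Without 47 control probe sets, 8746 of 8793 were fitted. Gene symbols came from the platform annotation: 7840 probe sets had 1 symbol, 388 several and 518 none, and 7838 of the 7840 gene identifiers were found in RefSeq. A gene with several probe sets (122 genes, of which 3 members: PSPH, SHMT2 and KARS1) was represented by the brightest. Of the members, 15 lie on probe sets named as common to several transcripts. LY294002 was compared with DMSO by limma 3.58.1 in R 4.3.3 (lmFit and eBayes, group as the only term, Benjamini-Hochberg over 8746 probe sets at 0.05). The fit was also run on simulated data with independent noise on each array. No simulated array stood apart, so that run does not cover a case like DMSO replicate 1. Class and list values are counts and medians without a test.

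The members, lists and tests were chosen with earlier results of these data known. Every member is named; values on each array are given for the 3 largest differences and the 3 brightest genes of each class and for some others, and from other lists the genes past the threshold or otherwise the 2 with the largest difference. Other settings were each array left out in turn, a block for the replicate number, quantile normalization, centring on array medians, weights per array, a robust prior with an intensity trend, removal of the dimmest 40% of probe sets, and averaging the probe sets of a gene. Promoter sequences are from RefSeq (GRCh38.p14), and the array's own probes are given no coordinates since their build is unnamed. Matplotlib 3.10.9 in Python 3.11.15 drew the figures.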

Additional observations from a re-analysis of the deposited data

How the results depend on the processing

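Of the 12 alternative settings, each that kept at least 2 arrays per group had 0 of the members tested past limma. The lowest adjusted p was 0.0626, after quantile normalization. In these settings 3 to 13 members had an unadjusted p under 0.05. The 3 were found without DMSO replicate 2, beside 994 of 7713 genes. The 13 were found after quantile normalization, beside 1524 of 7713 genes. The number of all genes past the threshold, 70, was 299 after quantile normalization, 147 after median centring, 203 without dim probe sets, 17 with array weights, 0 with the replicate block (820 at an unadjusted p under 0.05) and 0 to 4 when 1 array was left out (946 to 2085); the cause was not tested. Leaving out 1 array gave a median of -0.24 to -0.12 over all members, -0.23 to -0.024 over the serine, glycine and one-carbon genes (-0.024 without DMSO replicate 1), -0.09 to 0.0010 over the stress factors, -0.29 to -0.09 over the other amino acid enzymes and -0.39 to -0.18 over the synthetases with XPOT. With 1 DMSO array left out, 18 to 20 members had both LY294002 arrays below the DMSO arrays, and 2 to 3 had both above. Without DMSO replicate 1 these were 20 (20.2% of all genes) and 3 (18.6% of all genes). Without LY294002 replicate 1 the remaining array lay below in 24 members and above in 2, and without LY294002 replicate 2 in 19 and 4. Fewer arrays are parted more easily, and shares of all genes were counted only without DMSO replicate 1. With probe sets averaged per gene, 1 member lay above on all 5 arrays. The sign changed under at least 1 setting for MTHFD2, ATF4, CEBPB, CEBPG, NUPR1, HARS1 and RARS1, none of which had passed. The median of all genes moved by less than 0.02 under each setting. The labels state no pairing of same-numbered arrays. The correlation of their deviations from the group means was 0.002 for replicate 1 and -0.213 for replicate 2. With 2 LY294002 arrays these deviations mirror each other, so the 2 values are not independent and cannot show whether arrays were paired. Under the replicate block 0 members passed and ATF4 was below 0.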

Other observations

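The 12 genes outside the members that stood at least 0.5 above the other DMSO arrays on DMSO replicate 1 were named after their values were seen. They include EIF2S3, a subunit of eIF2 (0.83), VEGFA (0.81) and the cystine transporter SLC7A11 (0.54). BNIP3, a mitochondrial protein induced in hypoxia, stood 0.67 above and P4HA1, a collagen prolyl hydroxylase, 0.58. Genes of lipid synthesis were MSMO1 (0.67), SCD (0.64), LSS (0.63) and FDPS (0.63), and IFI44L (0.65) and XAF1 (0.56) are interferon-induced. PPID, a cyclophilin, completes them at 0.51. A total of 39 genes stood at least 0.5 below on the same array, of which 0 were members. No label records a difference in handling between the DMSO arrays, and the source of these values was not tested.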
